A study of Mus musculus with 6 samples.

Results

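Galectins are lectins that bind beta-galactose sugars on glycoproteins and glycolipids, and 5 of their genes, Lgals1, Lgals3, Lgals4, Lgals8 and Lgals9, were followed here in mouse heart preparations together with Lgals3bp, the gene of a secreted glycoprotein that galectin-3 binds. The members were taken by gene symbol, and each of the 6 stood on 1 row of the 32479 rows of the deposited table. They were selected on their symbols and on the measured CCL4 and Control FPKM of these same libraries, which were already known, so their differences are given as a description, with no p-value. The libraries came from C57BL/6J mice, 3 given carbon tetrachloride (CCL4) to model liver cirrhosis and 3 controls, with cardiac fibroblasts isolated from the heart of each mouse. CCL4 is a solvent that the liver turns into free radicals, and repeated doses scar the liver. No transgene, deletion or other treatment is named for either group. The labels state neither dose, route and duration of CCL4 nor the age and sex of the mice.

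Galectins leave the cell without a signal peptide and act both outside and inside it. Outside, they crosslink glycoproteins such as integrins and laminin at the cell surface and in the matrix, and inside, some of them gather on lysosomes whose broken membrane exposes sugars to the cytosol. Galectin-1 is built as a dimer of single lectin domains, galectin-3 carries a long tail that lets it form larger assemblies, and galectins 4, 8 and 9 join a pair of different lectin domains by a linker. In the heart, galectin-3 is best known as a product of macrophages and as a blood marker linked to fibrosis.

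Levels are FPKM, fragments scaled to gene length and library size, which can be compared between genes because they are per length. The libraries had an FPKM at or above 1 for 10737 to 11220 rows each, and 48.6% to 53.2% of each FPKM sum fell on 37 mitochondrially encoded rows. Markers of heart muscle were abundant in libraries labelled as cardiac fibroblasts. The 20 listed cardiomyocyte markers summed to 23978 to 25881 FPKM in CCL4 and 18187 to 21637 FPKM in Control libraries, while the 20 fibroblast markers summed to 709 to 715 FPKM in CCL4 and 545 to 888 FPKM in Control libraries. The members' values are therefore those of a mixed heart preparation, in which more cells of a type and more RNA per cell cannot be told apart. Rows with a mean of at least 1 FPKM were tested with limma on log2(FPKM + 1) and called at a Benjamini-Hochberg adjusted p under 0.05. Of 10995 tested rows 9.64% were called higher and 22.2% lower in CCL4, and "rose" and "fell" are used of called genes only. Of the 20 cardiomyocyte markers 4 rose, 1 fell and 15 were not called. Actc1, which rose, was at 5569 to 6091 FPKM in CCL4 and 1374 to 2276 FPKM in Control libraries and weighs heavily in those sums. Myh7, the marker that fell, was at 62.1 to 81.6 FPKM in CCL4 and 350 to 1492 FPKM in Control libraries.

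Lgals4 stood out among the members. It encodes galectin-4, best known from the lining of the gut, and lies on chromosome 7 at 28833854 to 28841708 on the plus strand (GRCm38). Lgals4 was at 12.8, 12.2 and 8.10 FPKM in the CCL4 libraries, against 56.5, 68.5 and 71.1 FPKM in the Control libraries. Every CCL4 library lay below every Control library. The means were 11.0 ± 2.57 FPKM in CCL4 and 65.4 ± 7.77 FPKM in Control libraries (SD, n = 3 each), a ratio of 0.169. On the log2(FPKM + 1) scale the difference was -2.48 ± 0.16 (SE), CCL4 minus Control. This was the 12th lowest of the 10995 rows with a mean of at least 1 FPKM, and the median over those rows was -0.09. None of the markers of gut epithelium and mesothelium reached a mean of 1 FPKM over the libraries. The 12 genes of that list summed to 1.44 to 3.90 FPKM in CCL4 and 1.39 to 6.88 FPKM in Control libraries. Which cells the Lgals4 transcripts came from was not tested.

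**Figure D1:**
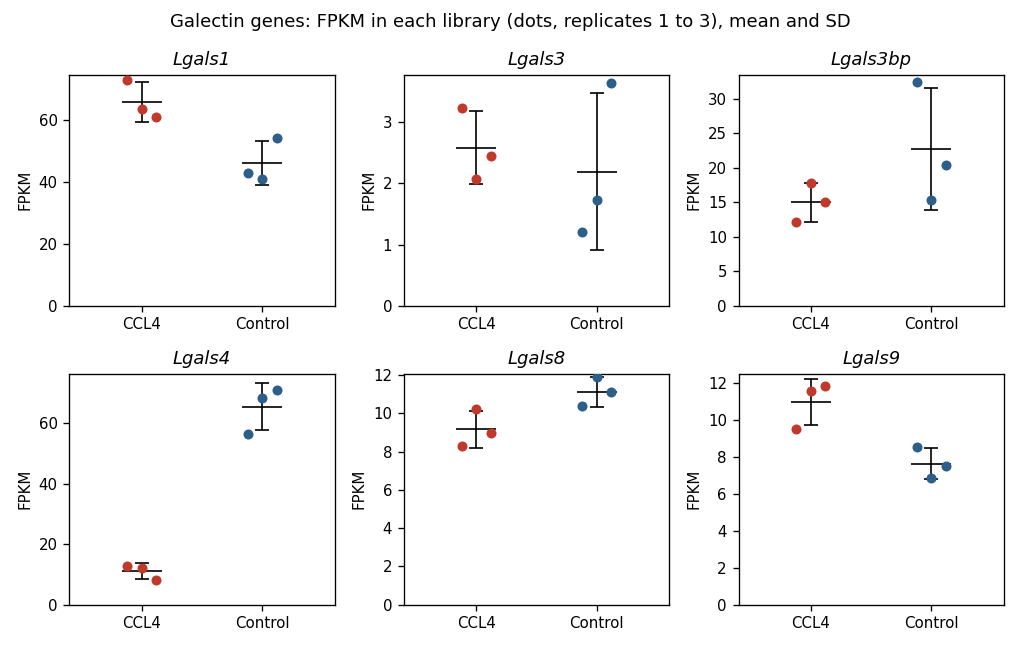
FPKM (vertical axes, each from 0) of the 6 genes in each library, with CCL4 left of Control. Dots are replicates 1 to 3, and the bars give the mean and SD. The groups are apart for Lgals1, Lgals4, Lgals8 and Lgals9 and overlap for Lgals3 and Lgals3bp.

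The gene next to Lgals4 also differed between the groups. Ech1, an enzyme of mitochondrial and peroxisomal fatty acid breakdown, ends 1606 bases before Lgals4 begins, on the same strand. It was singled out after its values were seen. Ech1 was at 332, 292 and 318 FPKM in CCL4 libraries, against 551, 655 and 629 FPKM in Control libraries, and it fell by 0.96 ± 0.09 on the log2 scale (SE; limma, Benjamini-Hochberg adjusted p = 0.000398). The Lgals4 level was 3.53% ± 0.868 of the Ech1 level in CCL4 and 10.7% ± 0.561 in Control libraries (SD, n = 3 each), and every CCL4 library lay below every Control library. Whether transcripts running on from Ech1 contributed to the Lgals4 value was not tested. The gene on the other side, Lgals7 (galectin-7, a galectin of stratified epithelium), was listed at 0 in every library but Control replicate 2, where it had 0.03 FPKM.

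**Figure D2:**
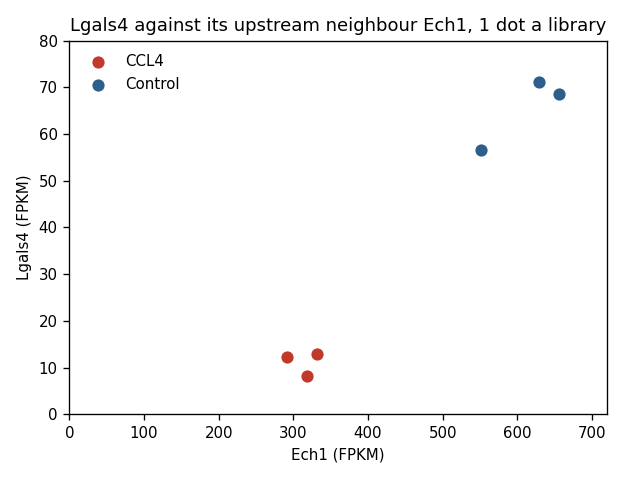
Lgals4 against Ech1, both in FPKM on axes that start at 0, with 1 dot for each library. The CCL4 libraries lie at 292 to 332 FPKM of Ech1 and 8.10 to 12.8 FPKM of Lgals4, and the Control libraries at 551 to 655 FPKM and 56.5 to 71.1 FPKM.

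The start of Lgals4 is shown because this gene had the largest difference of the family. The window is RefSeq's (GRCm38.p6, chr7:28833544-28833843, plus strand) and runs from 250 bases before to 50 bases after the RefSeq start, written 5′ to 3′. Capitals mark a CCAAT box, at -59 to -55 from the start, and a GC box on the opposite strand, at 29 to 34, with the start base counted as 0.
Lgals4: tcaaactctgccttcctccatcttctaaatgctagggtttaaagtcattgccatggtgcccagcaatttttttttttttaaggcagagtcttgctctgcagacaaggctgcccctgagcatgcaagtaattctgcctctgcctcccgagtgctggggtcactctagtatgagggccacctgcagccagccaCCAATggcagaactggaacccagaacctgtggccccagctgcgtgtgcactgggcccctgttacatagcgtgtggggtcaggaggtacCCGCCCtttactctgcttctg
The motifs were searched on both strands, and no matches overlapped here. A TATA box, written TATAAA, occurs in 13.6% of the 32851 RefSeq windows of this length. A CCAAT box occurs in 37.4%, a GC box, written GGGCGG, in 35.7%, and GAAA followed after any 2 bases by another GAAA, the core of the interferon-stimulated response element, in 3.44%. The Lgals4 window held 4 CG pairs, against a median of 7 over all windows.

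Lgals1, on chromosome 15 at 78926725 to 78930465, encodes galectin-1, which fibroblasts, smooth muscle and endothelial cells make and which binds laminin, fibronectin and integrins. It was at 72.9, 63.7 and 60.9 FPKM in CCL4 libraries, against 43.0, 41.1 and 54.3 FPKM in Control libraries. The CCL4 values all lay above the Control values, with the narrowest gap to Control replicate 3. The means were 65.8 ± 6.32 FPKM in CCL4 and 46.2 ± 7.12 FPKM in Control libraries (SD, n = 3 each), with a log2 difference of 0.51 ± 0.12 (SE). Of the 20 fibroblast markers 10 rose and 1 fell in CCL4, beside 9.64% and 22.2% of all tested rows. Their median log2 fold change was 0.67, and leaving out any 1 library gave 8 to 13 that rose. Col3a1, a chain of fibrillar collagen, was at 31.6 ± 1.47 FPKM in CCL4 and 4.88 ± 1.97 FPKM in Control libraries (SD, n = 3 each), and rose by 2.54 ± 0.23 (SE; adjusted p = 0.000326). The 2 most abundant fibroblast markers did not pass (adjusted p = 0.391 for Gsn and 0.274 for Dcn). Gsn was at 356 to 362 FPKM in CCL4 libraries and at 391, 328 and 523 FPKM in Control libraries, and Dcn at 79.1 to 85.9 FPKM in CCL4 and at 82.4, 85.3 and 141.6 FPKM in Control libraries, with Control replicate 3 the highest each time. Of 12 smooth muscle and pericyte markers 3 rose and no other was called, with a median log2 fold change of 0.06. Acta2, smooth muscle actin, was at 46.6 ± 7.97 FPKM in CCL4 and 21.8 ± 2.37 FPKM in Control libraries (SD, n = 3 each), and rose by 1.06 ± 0.14 (SE; adjusted p = 0.0013). Leaving out any 1 library gave 1 (CCL4 replicate 2, CCL4 replicate 3 or Control replicate 2) to 5 (CCL4 replicate 1) that rose. The summed level of this list was 195, 284 and 269 FPKM in CCL4 and 239, 265 and 252 FPKM in Control libraries, and these overlapped. Its most abundant marker, Rgs5, was at 113 ± 20.4 FPKM in CCL4 and 146 ± 16.0 FPKM in Control libraries. Every CCL4 value of Rgs5 lay below every Control value. The log2 fold change of Rgs5 was -0.37 ± 0.14 (SE; adjusted p = 0.0801, and 0.018 to 0.0488 under 3 other settings). Of 14 endothelial markers 1 was called, as lower. The part of these cell types in the Lgals1 difference was not tested.

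The member with the highest mean level was Lgals1 in CCL4 libraries and Lgals4 in Control libraries. Over the 5 galectin genes, Lgals1 made up 66.0% ± 2.21 of the summed FPKM in CCL4 and 34.8% ± 2.78 in Control libraries, and Lgals4 made up 11.0% ± 1.93 in CCL4 and 49.3% ± 2.89 in Control libraries (SD, n = 3 each). The sum itself was 99.6 ± 7.30 FPKM in CCL4 and 132.5 ± 14.1 FPKM in Control libraries. The ratio of Lgals4 to Lgals1 in the same library was 0.176, 0.191 and 0.133 in CCL4 and 1.31, 1.67 and 1.31 in Control libraries. Scaling a library by a single factor cannot change it, while quantile scaling can. In CCL4 libraries the order of mean levels was Lgals1, Lgals3bp, Lgals4, Lgals9, Lgals8, Lgals3, where the ranges of neighbours overlapped from Lgals3bp through to Lgals8. In Control libraries the order was Lgals4, Lgals1, Lgals3bp, Lgals8, Lgals9, Lgals3, and the range of each neighbour lay clear of the next.

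**Figure D3:**
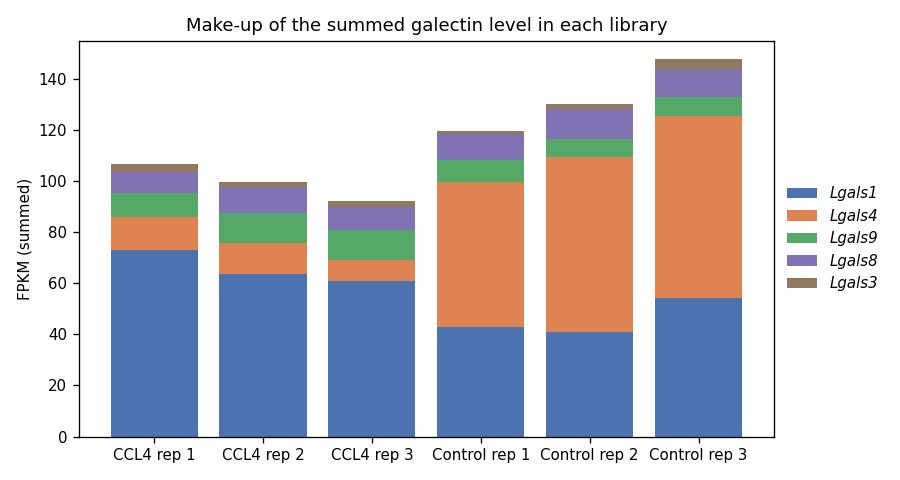
Stacked FPKM of the 5 galectin genes in each library, with the 3 CCL4 libraries on the left. Lgals4 takes 8.78% to 12.2% of the bar in CCL4 libraries and 47.2% to 52.6% in Control libraries.

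Lgals9 encodes galectin-9, which interferon induces in several cell types and which is known as a ligand of TIM-3, an inhibitory receptor of T cells. It lies on chromosome 11 at 78962974 to 78984946 on the minus strand. It was at 9.52, 11.6 and 11.8 FPKM in CCL4 libraries, against 8.54, 6.88 and 7.49 FPKM in Control libraries. The groups did not overlap, with CCL4 replicate 1 and Control replicate 1 nearest to each other. The means were 11.0 ± 1.27 FPKM in CCL4 and 7.64 ± 0.84 FPKM in Control libraries (SD, n = 3 each), and the log2 difference was 0.47 ± 0.11 (SE). The TIM-3 gene Havcr2, looked at because of this role, was at 0.20 ± 0.114 FPKM in CCL4 and 0.147 ± 0.0611 FPKM in Control libraries and was too low to be tested.

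The start of Lgals9 is printed for its interferon-response letters. The RefSeq window (GRCm38.p6, chr11:78984875-78985174, minus strand, written 5′ to 3′ along the gene) held a pair of matches to that interferon-stimulated core, read on the opposite strand and shown in capitals. They lie at -55 to -46 and at 15 to 24 from the start.
Lgals9: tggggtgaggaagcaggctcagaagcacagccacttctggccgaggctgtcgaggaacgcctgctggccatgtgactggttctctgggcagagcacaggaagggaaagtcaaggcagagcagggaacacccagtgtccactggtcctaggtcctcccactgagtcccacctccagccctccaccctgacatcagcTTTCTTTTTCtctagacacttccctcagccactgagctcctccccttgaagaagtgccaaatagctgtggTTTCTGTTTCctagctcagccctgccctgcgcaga
None of the windows of Lgals3, Lgals3bp, Lgals4 and Lgals8 held these letters. A match is a description of the sequence and not a measured binding site.

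Interferon-stimulated genes were read beside it. Of 29 tested, 0 rose and 2 fell in CCL4 by limma (3 higher and 6 lower at an unadjusted p under 0.05). Of all tested rows 9.64% rose and 22.2% fell. The median log2 fold change of the list was -0.09, against -0.09 over all rows. The 2 were Trim25, a ubiquitin ligase of viral RNA sensing, at 4.89 ± 0.52 FPKM in CCL4 and 7.02 ± 0.766 FPKM in Control libraries (adjusted p = 0.0124), and Ifit2, at 4.31 ± 1.35 FPKM in CCL4 and 6.72 ± 0.196 FPKM in Control libraries (adjusted p = 0.0264). The Ifit2 call was lost without CCL4 replicate 1, CCL4 replicate 3, Control replicate 2 or Control replicate 3 (adjusted p 0.0592 to 0.0904), without the filter on low values (0.0946) and with quantile scaling (0.0508). The most abundant, the membrane protein Ifitm3, was at 47.9 ± 2.72 FPKM in CCL4 and 36.1 ± 7.08 FPKM in Control libraries (adjusted p = 0.0508, and 0.0184 to 0.0458 under 5 other settings). The 34 genes of the list summed to 165 to 217 FPKM in CCL4 and 149 to 217 FPKM in Control libraries. Nos2, the inducible nitric oxide synthase, ends 2719 bases from the end of Lgals9, on the other strand. Nos2, singled out after its values were seen, was at 1.95, 2.81 and 2.78 FPKM in CCL4 and at 1.22, 1.31 and 1.33 FPKM in Control libraries, and it rose by 0.61 ± 0.11 (SE; adjusted p = 0.00548).

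Lgals3bp, on chromosome 11 at 118392751 to 118402092, encodes the galectin-3-binding protein, which is secreted, heavily glycosylated and also induced by interferon. It was at 12.2, 17.8 and 15.1 FPKM in CCL4 libraries, against 32.5, 15.3 and 20.4 FPKM in Control libraries. The groups overlapped, since Control replicate 2 lay within the CCL4 range while Control replicate 1 lay far above it. The means were 15.0 ± 2.82 FPKM in CCL4 and 22.7 ± 8.83 FPKM in Control libraries (SD, n = 3 each), with a log2 difference of -0.52 ± 0.25 (SE). Without Control replicate 1 the difference was -0.24. Control replicate 1 was also the library with most neutrophil transcripts. The 8 neutrophil markers summed to 26.0 FPKM there, to 2.64 and 3.52 FPKM in the other Control libraries and to 2.78 to 6.53 FPKM in CCL4 libraries, and S100a9, a calcium-binding protein of neutrophil granulocytes, was at 15.8 FPKM in it. The interferon list summed to 170, 217 and 165 FPKM in CCL4 and to 217, 149 and 184 FPKM in Control libraries. Single genes differed between CCL4 replicate 2 and Control replicate 1, which had nearly the same sum. Ifitm3 was at 51.0 FPKM in CCL4 replicate 2 and 41.4 FPKM in Control replicate 1, and Irf7 at 4.27 and 6.28 FPKM. The part of neutrophils and of interferon in the Lgals3bp level was not tested.

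Lgals3, on chromosome 14 at 47367751 to 47386160, encodes galectin-3, the member most studied in heart failure, and it had the lowest level of the 6. It was at 3.24, 2.07 and 2.45 FPKM in CCL4 libraries, against 1.21, 1.73 and 3.64 FPKM in Control libraries. The Control libraries spanned the whole CCL4 range, and Control replicate 3 held the highest value of all. The means were 2.59 ± 0.597 FPKM in CCL4 and 2.19 ± 1.28 FPKM in Control libraries (SD, n = 3 each). The log2 difference of 0.23 ± 0.25 (SE) was smaller than its error, and it was -0.00188 without Control replicate 1 and 0.53 without Control replicate 3. Among the 10995 rows Lgals3 stood at the 28.2th percentile of mean level, while Lgals1 stood at the 95.6th.

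Macrophages, a main source of galectin-3 in the heart, left a clear trace in all libraries. The 26 macrophage markers summed to 222 to 248 FPKM in CCL4 and 204 to 265 FPKM in Control libraries, and none was at 0 throughout. Control replicate 3 was highest for this sum, for Lgals3 and for the fibroblast sum. Among the other libraries, CCL4 replicate 1 had 222 FPKM of macrophage markers with 3.24 FPKM of Lgals3. Control replicate 1 had 239 FPKM with 1.21 FPKM. The part of macrophages in the Lgals3 level was not tested. Of the 17 macrophage markers that passed the filter, 1 rose and 4 fell in CCL4, beside 9.64% and 22.2% of all tested rows. Cd68, a lysosomal protein of macrophages, was at 5.99 ± 0.111 FPKM in CCL4 and 4.06 ± 0.732 FPKM in Control libraries (adjusted p = 0.0113). Cd163, the haemoglobin scavenger receptor of resident macrophages, was at 2.73 ± 0.662 FPKM in CCL4 and 6.27 ± 0.75 FPKM in Control libraries (adjusted p = 0.00175), and Lyve1, a hyaluronan receptor of resident macrophages and lymph vessels, was at 3.83 ± 0.714 FPKM in CCL4 and 7.63 ± 1.74 FPKM in Control libraries (adjusted p = 0.00828). The abundant Lyz2, C1qb and C1qa had log2 fold changes of 0.11, -0.05 and 0.01 and did not pass (adjusted p = 0.46, 0.698 and 0.939).

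Lgals8, on chromosome 13 at 12439415 to 12464944, encodes galectin-8, which binds integrins and marks damaged vesicles and lysosomes. It was at 8.29, 10.2 and 8.98 FPKM in CCL4 libraries, against 10.4, 11.9 and 11.1 FPKM in Control libraries. The groups touched without overlapping, with CCL4 replicate 2 just under Control replicate 1. The means were 9.16 ± 0.973 FPKM in CCL4 and 11.1 ± 0.765 FPKM in Control libraries (SD, n = 3 each), with a log2 difference of -0.26 ± 0.09 (SE). It was -0.40 after rescaling to a common sum and -0.15 with quantile scaling. Lgals8 overlaps Heatr1 on the opposite strand and shared 5.53% of its 31-base words with other genes, while the other 5 shared none. Whether this affected the Lgals8 value was not tested. Shared words cannot show transcripts running on from a neighbouring gene, so they do not rank the members by certainty. Heatr1 was at 1.08 ± 0.0551 FPKM in CCL4 and 1.29 ± 0.1 FPKM in Control libraries.

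The members' calls are not given, since the members were chosen with these values known. Over all tested rows 9.64% were called higher in CCL4, 22.2% lower and 31.8% in either direction. Groups were apart for 4 of the 6 members, beside 48.7% of all tested rows. For the same reason nothing is read from this count. The median log2 fold change of the 6 was -0.01, against -0.09 over all rows. Calls across all rows depended on scaling. Higher calls were 30.3% of all calls as deposited (1060 higher, 2441 lower), 12.7% after rescaling to a common sum (615 and 4241), 52.2% with median-ratio scaling (1714 and 1570) and 51.3% with quantile scaling (1723 and 1635), and the median of all rows was -0.21 with the common sum and -0.01 with quantile scaling. Under each of these scalings Lgals1, Lgals3 and Lgals9 kept a positive and Lgals3bp, Lgals4 and Lgals8 a negative difference. The FPKM sums as deposited were 588660 to 602763 in CCL4 and 519609 to 542738 in Control libraries. After rescaling to a common sum the difference was 0.36 ± 0.12 for Lgals1 and 0.33 ± 0.12 for Lgals9 (SE).

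**Figure D4:**
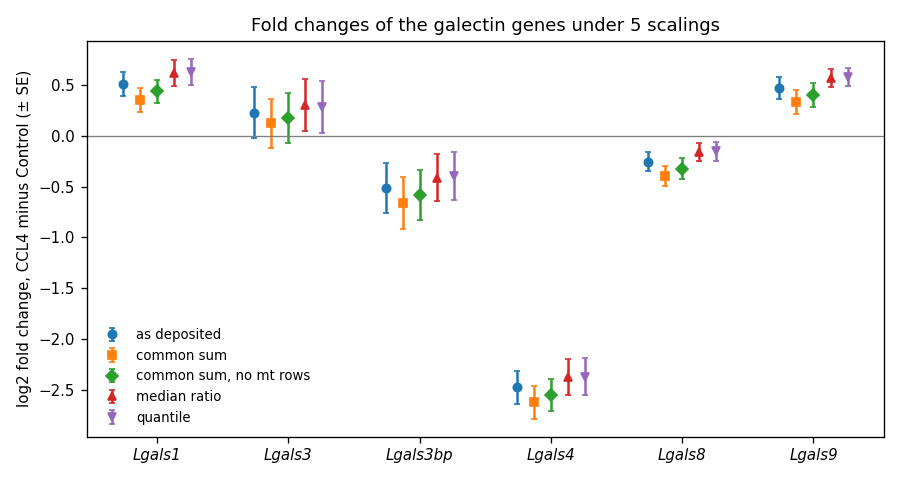
Log2 fold change of each member, CCL4 minus Control, with SE bars, for FPKM as deposited and under 4 other scalings. Lgals4 lies between -2.63 and -2.37 throughout, and the sign of each member is the same in all 5.

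Of 6 further genes of the family, Lgals6 and Grifin were not analysed here, and Lgals2, Lgals7 and Lgals12 were below a mean of 0.2 FPKM in both groups. Lgalsl, a galectin-like protein without known sugar binding, was at 5.18, 7.47 and 7.64 FPKM in CCL4 libraries, against 9.39, 9.58 and 9.52 FPKM in Control libraries. All CCL4 values lay below the Control values, which were nearly equal among themselves. Lgalsl fell by 0.45 ± 0.13 (SE; adjusted p = 0.0295), a call lost without any 1 of the Control libraries (adjusted p 0.0531 to 0.0742), without the filter on low values (0.093) and with median-ratio or quantile scaling (0.0504 and 0.055).

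Enzymes that build galectin ligands were read next. Of 30 tested genes for branching, galactose and sialic acid transfer and sugar supply, 0 rose and 4 fell. Of all tested rows 9.64% rose and 22.2% fell. The median log2 fold change of the list was -0.03. At an unadjusted p under 0.05 limma placed 1 of the 30 higher and 7 lower. Man2a1, the Golgi mannosidase that opens the way to complex N-glycans, was at 3.49 ± 0.609 FPKM in CCL4 and 6.36 ± 0.431 FPKM in Control libraries and fell by 0.72 ± 0.11 (SE; adjusted p = 0.00234). B4galt1, which adds the galactose that galectins bind, was at 13.4 ± 0.997 FPKM in CCL4 and 17.0 ± 1.05 FPKM in Control libraries (-0.32, adjusted p = 0.0208). This call was lost without CCL4 replicate 1 or CCL4 replicate 2 and with median-ratio or quantile scaling (adjusted p up to 0.0782). It was also lost with the replicate number as a block (0.0517). Gcnt2, a branching enzyme of lactosamine chains, fell by 0.41 ± 0.10 (adjusted p = 0.0165; 0.0609 at most without CCL4 replicate 3 or the filter), and the sialyltransferase St3gal1 by 0.26 ± 0.08 (adjusted p = 0.0366; 0.0649 to 0.107 with any 1 CCL4 library, Control replicate 2 or Control replicate 3 left out, 0.0812 without the filter, and 0.101 and 0.0909 with median-ratio and quantile scaling). The St3gal1 call was lost with the replicate number as a block too (0.0723). The most abundant of the list, the branching enzyme Mgat4b, was at 19.0 ± 0.851 FPKM in CCL4 and 20.8 ± 1.28 FPKM in Control libraries (adjusted p = 0.248). With any 1 CCL4 library left out, 2 of the list were lower. After rescaling to a common sum it was 9, and with median-ratio scaling 3 were higher and 2 lower.

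Glycoproteins that galectins are known to bind went both ways. Of 26 tested, 7 rose and 8 fell in CCL4, beside 9.64% and 22.2% of all tested rows. The median log2 fold change was 0.17. Tfrc, the transferrin receptor, was at 8.36, 9.40 and 12.4 FPKM in CCL4 libraries, against 3.12, 2.64 and 2.50 FPKM in Control libraries, and rose by 1.54 ± 0.13 (SE; adjusted p = 0.000255). The laminin receptor subunit Itga6 rose by 0.73 ± 0.11 (adjusted p = 0.00264). Slc3a2, the CD98 heavy chain that galectin-3 binds, was at 6.90 ± 0.478 FPKM in CCL4 and 10.8 ± 0.39 FPKM in Control libraries and fell by 0.58 ± 0.08 (adjusted p = 0.00138). Cd47, the surface signal that restrains phagocytosis, fell by 0.51 ± 0.08 (adjusted p = 0.003). The lysosomal membrane proteins, singled out after their values were seen, differed from each other. Lamp2 was at 14.5 ± 1.73 FPKM in CCL4 and 21.6 ± 1.70 FPKM in Control libraries (-0.55, adjusted p = 0.00625), and Lamp1 at 127.6 ± 7.32 FPKM in CCL4 and 118.4 ± 8.75 FPKM in Control libraries (0.11, adjusted p = 0.362). The most abundant partner, basigin (Bsg), was at 417 ± 10.3 FPKM in CCL4 and 461 ± 48.1 FPKM in Control libraries (adjusted p = 0.276). The list had 4 lower members without Control replicate 3 and 5 without CCL4 replicate 1 or CCL4 replicate 3. With quantile scaling 13 were higher and 5 lower.

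Genes of the response to damaged lysosomes, in which galectins 3, 8 and 9 take part, followed. Of 33 tested, 2 rose and 7 fell, beside 9.64% and 22.2% of all tested rows. The median log2 fold change was -0.10, against -0.09 over all rows. Sqstm1 (p62), the cargo receptor of selective autophagy, was at 81.1, 75.7 and 76.5 FPKM in CCL4 libraries, against 126.8, 156.6 and 130.0 FPKM in Control libraries, and fell by 0.81 ± 0.10 (SE; adjusted p = 0.000919). The autophagosome proteins Map1lc3b and Gabarap fell by 0.68 ± 0.08 and 0.51 ± 0.07 (adjusted p = 0.00101 and 0.00152), and Ubxn6, a partner of the VCP segregase in clearing damaged lysosomes, by 0.57 ± 0.07 (adjusted p = 0.00111). The 2 that rose were Map1lc3a, at 209 ± 3.74 FPKM in CCL4 and 171 ± 13.2 FPKM in Control libraries, and Lamtor4, a part of the Ragulator complex at the lysosome, at 12.6 ± 0.839 FPKM in CCL4 and 9.58 ± 0.51 FPKM in Control libraries. The Map1lc3a call (adjusted p = 0.0277) held without Control replicate 1 but not without each other single library (0.063 to 0.101) and not without the filter on low values (0.0551). It was also lost with the replicate number as a block (0.0587) and with a common sum without mitochondrial rows (0.074). After rescaling to a common sum neither Map1lc3a nor Lamtor4 was called (0.257 and 0.0608) and 15 of the list were lower. The most abundant member that did not pass, Chmp4b of the membrane repair machinery, was at 36.2 ± 1.42 FPKM in CCL4 and 40.6 ± 1.93 FPKM in Control libraries (adjusted p = 0.139).

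**Figure D5:**
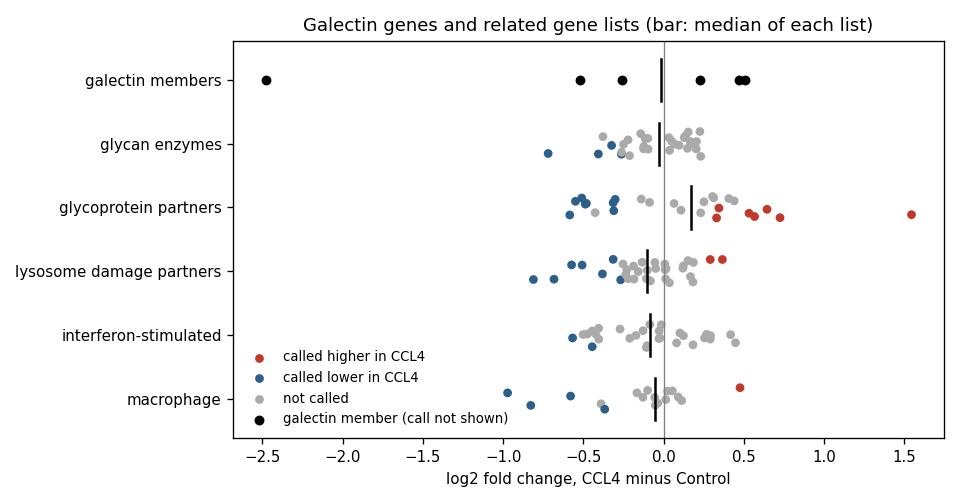
Log2 fold changes, CCL4 minus Control, of the 6 members (black, calls not shown) and of the tested genes of 5 lists, coloured by their call. Vertical bars mark the medians, which are -0.01 for the members, -0.03 for glycan enzymes, 0.17 for glycoprotein partners, -0.10 for lysosome damage genes, -0.09 for interferon-stimulated genes and -0.06 for macrophage markers.

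For each member the rows with the most similar profile over the 6 libraries were taken by the smallest root mean square difference of centred log2 values, with no test. For Lgals4 these were Ccn2 (0.241), Scd4 (0.264) and Sik1 (0.265), with Ccn2 at 14.1 ± 2.55 FPKM in CCL4 and 86.4 ± 20.5 FPKM in Control libraries. For Lgals1 they were Rhoc (0.0523), Tspan6 (0.0524) and Fcrls (0.0584), for Lgals9 Capn1 (0.0431), Mrs2 (0.0437) and Wfs1 (0.0456), and for Lgals8 Sft2d3 (0.0241), Crebl2 (0.029) and Zfp317 (0.0314). Lgals3 lay near Crispld2 (0.11) and Igfbp4 (0.145), and Lgals3bp near Dusp18 (0.0964), Tmem164 (0.146) and Gpam (0.153).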

How the data were processed

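Polyadenylated RNA of 6 libraries was sequenced from both ends with the second strand marked by uracil, per the labels' protocols. The authors deposited FPKM values, made with StringTie 2.1.6 on GRCm38 per the submitters' processing notes. For the aligner, annotation release, filters and strand setting, nothing is given in the sources used here. Depth is unknown. In single-exon genes only 31.3% to 36.6% of low values lay within 0.1 of a whole fragment at the best unit. Even spread gives 20% at a fixed unit and can give more at the best of many, so the 20% is a low reference. Most low values did not fall on whole fragments, so no count test was run.

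Rows averaging 1 FPKM or more were compared on log2(FPKM + 1), a scale that understates changes of low genes, with limma 3.58.1 in R 4.3.3 (eBayes with trend, two-sided, no covariate), checked on simulated data. The design text gives 3 mice a group, and 1 mouse is taken to stand behind each library. Same-numbered libraries did not deviate together, so the numbers were not used as pairs. This cannot show how the mice were matched or processed.

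Members and lists were chosen with earlier results of these data known. Genes were named by rule: the members, other family genes, the called list genes with the smallest p, the most abundant gene not called, and the 3 rows nearest each member in profile, of which 1 is not reported here. For the marker lists the rule also took the 3 most abundant markers. Not all markers that it named are reported. Among those left out is Col1a1, which had a smaller p than the Col3a1 shown. Heatr1 was added as the gene that overlaps Lgals8. Havcr2, Lamp1, Lamp2, Map1lc3a, Lamtor4, Ech1, Nos2, Kdr, Nrp1 and Mcam were added after their values were seen. Of the rows' symbols 96.82% matched GENCODE M21 (GRCm38), which gave positions. RefSeq promoter windows were found for 5 members. Alternatives were the pseudocount, filter, scaling, variance model, replicate block and leaving out each library. No marker of lymphocytes, epithelium or hepatocytes passed the filter on low values.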

Additional observations from a re-analysis of the deposited data

How the results depend on the processing

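Lgals1, Lgals3bp, Lgals4, Lgals8 and Lgals9 kept their direction under all 16 alternatives, and Lgals3 in all but 1 of the 15 that kept it. The exception was -0.00188 without Control replicate 1, within a range of -0.00188 to 0.53 without any 1 library. Without any 1 library Lgals4 ranged from -2.59 to -2.29, Lgals1 from 0.43 to 0.63, Lgals9 from 0.41 to 0.56, Lgals8 from -0.33 to -0.19 and Lgals3bp from -0.76 to -0.24. Lgals8 was -0.40 after rescaling to a common sum.

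Counts of calls moved more. Without any 1 library 631 to 1152 rows were higher and 1549 to 2108 lower, 0 to 1 glycan enzymes were higher and 2 to 4 lower, 5 to 9 glycoprotein partners were higher and 4 to 7 lower, and 1 to 2 lysosome damage genes were higher and 5 to 7 lower. With a mean of at least 5 FPKM, where fewer rows are tested, 655 rows were higher and 1510 lower, and 1 glycan enzyme was lower. With no filter 2 glycan enzymes and 5 partners were lower and 1 lysosome damage gene higher. A common sum gave 615 higher and 4241 lower rows, 9 lower glycan enzymes, and 0 higher and 15 lower lysosome damage genes. A common sum without mitochondrial rows gave 7 lower glycan enzymes and 1 higher lysosome damage gene. Median-ratio scaling gave 1714 higher and 1570 lower rows, 3 higher and 2 lower glycan enzymes, 12 higher and 5 lower partners and 4 higher lysosome damage genes. Quantile scaling gave 1723 higher rows, 3 higher and 2 lower glycan enzymes, 13 higher and 5 lower partners and 4 higher lysosome damage genes. Beyond fewer rows or samples, the cause was not tested.

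Deviations of same-numbered libraries correlated at -0.064, 0.0461 and -0.038, and 1 of 3 CCL4 libraries correlated best with its own number. With the replicate number as a block 861 rows were higher and 1790 lower, 2 glycan enzymes were lower and 1 lysosome damage gene was higher. With 3 libraries a group and unknown depth, the differences of Lgals3 and Lgals3bp, whose groups overlapped, cannot be told from the spread between libraries.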

Other observations

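Of the 7 glycoprotein partners that rose in CCL4, beside 8 that fell, Kdr, Nrp1 and Mcam are receptors of blood vessel cells. These 3 were picked after their values were seen, so nothing is read from their shared direction. Kdr, the VEGF receptor of endothelial cells, was at 14.3, 17.3 and 17.5 FPKM in CCL4 libraries, against 11.5, 10.8 and 10.5 FPKM in Control libraries, and rose by 0.53 ± 0.09 (SE; limma, adjusted p = 0.00468). Nrp1, its co-receptor, was at 7.98 ± 1.33 FPKM in CCL4 and 4.73 ± 0.706 FPKM in Control libraries (SD, n = 3 each; adjusted p = 0.00842), and Mcam, an adhesion protein of endothelial cells and pericytes, at 14.3 ± 1.94 FPKM in CCL4 and 9.31 ± 0.813 FPKM in Control libraries (adjusted p = 0.00685). Of 14 endothelial markers 0 rose and 1 fell by limma (3 higher and 2 lower at an unadjusted p under 0.05), with Flt1, another VEGF receptor, at 6.02 ± 0.626 FPKM in CCL4 and 9.26 ± 0.771 FPKM in Control libraries (adjusted p = 0.00455). Endothelial markers summed to 276 to 302 FPKM in CCL4 and 267 to 312 FPKM in Control libraries.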
